A study of Mus musculus with 8 samples.

Results

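The genes described here encode 5 receptor tyrosine kinases of class III: Kit, Flt3, Csf1r, Pdgfra and Pdgfrb. They were chosen by gene symbol, as members of one receptor class, when earlier results of these data were known. Each was measured by a single probe set that names no other gene: 10522530 for Kit, 10535780 for Flt3, 10456071 for Csf1r, 10522503 for Pdgfra and 10456046 for Pdgfrb. All 5 members were therefore measured, among 19938 genes tested in the series.

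Receptors of this class share an outer part of immunoglobulin-like domains, one pass through the membrane and an inner kinase domain that is interrupted by an insert. A dimeric ligand brings a pair of receptors together, the kinases phosphorylate each other, and adaptor proteins, phospholipase C, phosphoinositide 3-kinase and the RAS pathway are recruited. Kit binds stem cell factor and is a mark of blood stem and progenitor cells and of mast cells. Flt3 binds FLT3 ligand and acts in early lymphoid and myeloid progenitors and dendritic cells, and Csf1r binds macrophage colony-stimulating factor and interleukin-34 and drives the monocyte and macrophage lineage. Pdgfra and Pdgfrb bind platelet-derived growth factors and are best known from mesenchymal cells, pericytes and smooth muscle.

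The study asked what the loss of Runx1, a transcription factor needed in blood formation, and of Cbfb, the partner that steadies its hold on DNA, does to gene expression of mouse MLL-AF9 cells. In both groups the cells descended from marrow selected for c-Kit, the product of the member Kit, from mice in which both genes carry loxP sites, and they had received the leukaemia fusion MLL-AF9 and CreERT2, a Cre recombinase that 4-hydroxytamoxifen (4OHT) switches on, followed by puromycin and several rounds of replating. Cultures labelled Runx1Cbfb-KO (KO below) were given 4OHT at 1 µM for 24 h and Control cultures were given ethanol for 24 h, in cytokine-enriched methylcellulose. Each group held 2 biological replicates of clone 2 and 2 of clone 1, so the 8 arrays formed 4 sets, each with the KO-labelled and the Control culture of one clone and replicate number. Whether a number marks a shared day or parent culture is not given in the sources used here. No culture without the floxed alleles received 4OHT, so the effects of the agent and of active Cre cannot be told apart from that of deletion. The 2 clones are all the independent cell populations there are, and p-values measure the spread between these cultures.

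Values are the authors' log2 expression levels from RMA, with array medians between 6.26 and 6.39. Arrays of the same clone correlated at 0.991 to 0.997 over all probe sets and arrays of different clones at 0.977 to 0.991. Runx1 signal was higher in the arrays labelled KO in 4 of 4 sets (log2 difference 0.52 ± 0.04, SE; limma adjusted p = 1.64e-05) and Cbfb signal was lower in 4 of 4 without passing (-0.18 ± 0.05; adjusted p = 0.128). A whole-transcript probe set averages exons, so this does not test the deletion itself, but Runx1 went against its label, and all directions below follow the labels. Of 7 genes of granulocyte and monocyte progenitors, 7 lay above the level that 95% of 1027 olfactory receptor genes stayed under, which was 5.75 and is used here as the level of genes usually silent in blood cells. These counts use means over all 8 arrays, and Cd34 of the progenitor genes was near 5.75 in clone 1. Of 10 mast cell markers 4 lay above it (Ms4a2 among them on 4 of 8 arrays), of 9 dendritic cell markers 3, of 8 monocyte and macrophage markers 6 and of 10 fibroblast and pericyte markers 6. The mast cell markers above it were Ms4a2, Mcpt8, Hdc and Gata2, while Cpa3, Cma1, Mcpt4, Tpsb2, Tpsab1 and Fcer1a were not.

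Since Runx1 binds DNA, the promoter windows of Kit, which passed the test of change, and of Flt3, whose difference was the furthest above 0 without passing, are shown first. The Pdgfrb window, like that of Csf1r, was not searched and is not shown. They are RefSeq windows of build GRCm38.p6 that run from 250 bases before to 50 after a gene's start, Kit at chr5:75574737-75575036 on the plus strand and Flt3 at chr5:147400440-147400739 on the minus strand, each printed 5′ to 3′ with capitals for the RUNX core motif, TGTGGT or TGCGGT on either strand.
Kit: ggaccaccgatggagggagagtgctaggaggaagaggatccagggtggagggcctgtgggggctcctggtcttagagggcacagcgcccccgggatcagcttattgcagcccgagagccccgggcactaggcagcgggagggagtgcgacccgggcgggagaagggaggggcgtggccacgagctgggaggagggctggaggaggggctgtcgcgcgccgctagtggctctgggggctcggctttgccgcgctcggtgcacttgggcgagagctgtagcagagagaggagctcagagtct
Flt3: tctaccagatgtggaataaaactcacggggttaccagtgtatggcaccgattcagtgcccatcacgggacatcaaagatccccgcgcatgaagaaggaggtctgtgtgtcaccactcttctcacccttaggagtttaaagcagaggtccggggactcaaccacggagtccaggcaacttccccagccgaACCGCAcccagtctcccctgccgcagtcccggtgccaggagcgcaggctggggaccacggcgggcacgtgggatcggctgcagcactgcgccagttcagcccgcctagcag
The Flt3 window held 1 match, TGCGGT read on the opposite strand at position -61 from the start, and the Kit window held 0. Over 32851 such windows of all genes 22.4% held a match. The Kit window held 1 match to GAGGAA, a core of sites for the ETS family to which PU.1 belongs, at position -223, and the Flt3 window held 0, where 28.3% of all windows held at least 1. Neither window held the GATA motifs AGATAA or TGATAA (18.6% of windows) or the C/EBP letters TTGCNNAA (10.8%). The Pdgfra window held 0 RUNX, GAGGAA and GATA matches and 2 C/EBP matches. RefSeq lists 2 Kit windows, of which 1 is shown and was searched. A match is a description of letters, and enhancers outside these windows were not searched.

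The RefSeq annotation places Pdgfra, Kit and the receptor gene Kdr next to each other on chromosome 5, and Csf1r and Pdgfrb next to each other on chromosome 18.

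The first question was whether the receptor genes differ after 24 h of 4OHT. Pdgfrb and Kit fell in the cultures labelled KO, by 1.53-fold and 1.28-fold. Flt3, Csf1r and Pdgfra did not pass the test, at log2 differences of 0.29, 0.18 and -0.03. Thus 2 of 5 members passed, both lower, beside 0.953% of all genes in either direction and 0.471% in the lower direction (limma with the set as a block, Benjamini-Hochberg adjusted p under 0.05 over all 19938 genes). The median size of the log2 difference was 0.29 over the 5 members and 0.04 over all genes. The cultures are bulk samples, in which fewer cells of a type and less RNA per cell cannot be told apart.

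**Figure D1:**
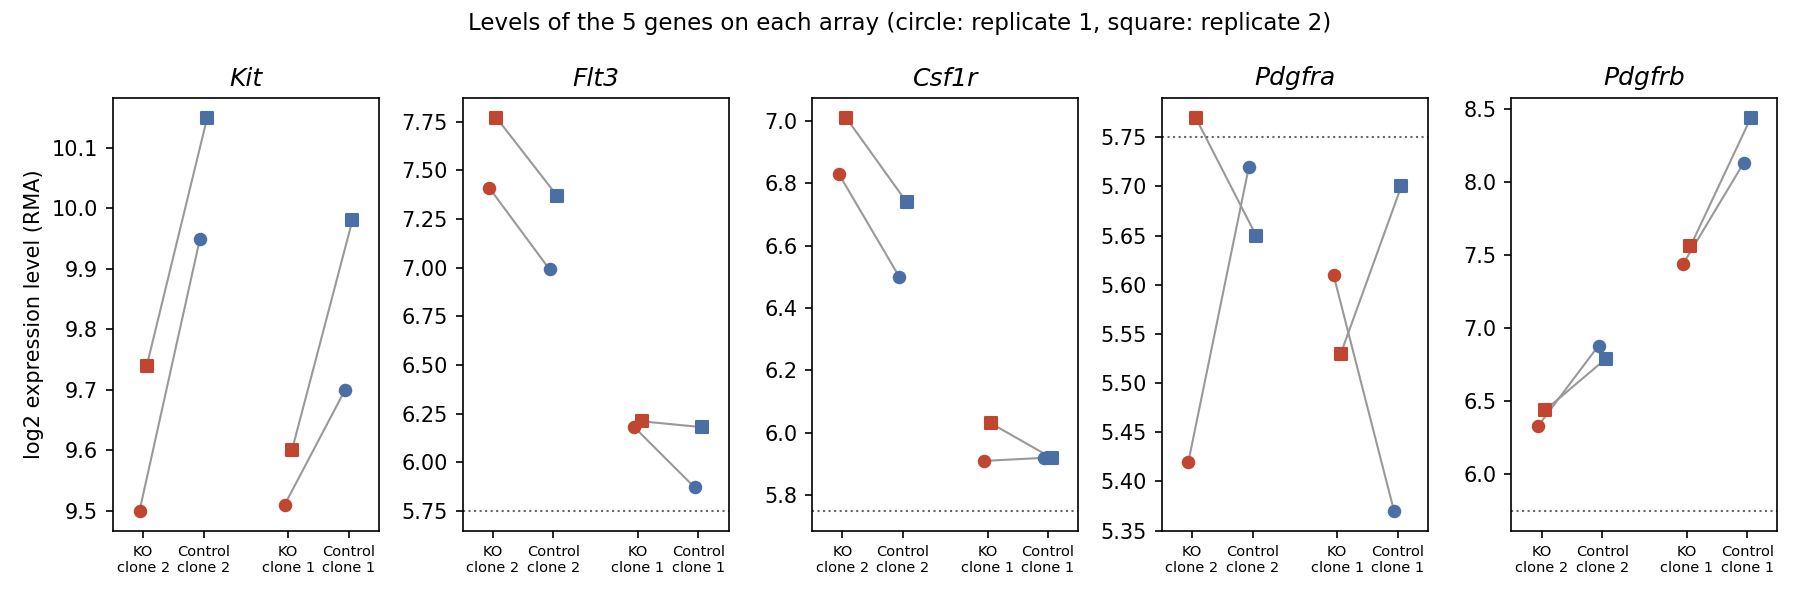
Log2 expression level (vertical axis, its range differing between panels) of each of the 5 genes on each of the 8 arrays, KO-labelled (red) and Control (blue) of clone 2 and clone 1, with a grey line joining the cultures of a set. The dotted line marks 5.75, the level that 95% of olfactory receptor genes stay under (below the range shown for Kit). Kit and Pdgfrb are lower in the KO-labelled culture of every set, and Flt3, Csf1r and Pdgfrb separate the clones.

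Kit, the receptor for stem cell factor, was at 9.50 and 9.74 in KO-labelled cultures of clone 2 and at 9.51 and 9.60 in those of clone 1. In Control cultures it was at 9.95 and 10.15 in clone 2 and at 9.70 and 9.98 in clone 1. The highest KO-labelled value lay just above the lowest Control value, so the groups overlapped, but within every set the KO-labelled culture was lower. The set differences were -0.45 and -0.41 in clone 2 and -0.19 and -0.38 in clone 1. The group means were 9.59 ± 0.11 in KO-labelled and 9.95 ± 0.19 in Control cultures (SD, n = 4 each). The fitted difference was -0.36 ± 0.05 (SE, 4 sets; 95% interval -0.47 to -0.25; limma adjusted p = 0.00404), lower in 4 of 4 sets, a pattern that 6.54% of all genes showed. From low to high, the mean levels were those of KO-labelled clone 1 (9.55), KO-labelled clone 2 (9.62), Control clone 1 (9.84) and Control clone 2 (10.05). The replicates of each neighbouring pair in this order overlapped.

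Pdgfrb, the receptor for the B and D chains of platelet-derived growth factor, was at 6.33 and 6.44 in KO-labelled cultures of clone 2 and at 7.44 and 7.56 in those of clone 1. In Control cultures it was at 6.88 and 6.79 in clone 2 and at 8.13 and 8.44 in clone 1. Every KO-labelled value lay below every Control value of its own clone, and over both clones the groups overlapped. The set differences were -0.55 and -0.35 in clone 2 and -0.69 and -0.88 in clone 1. The fitted difference was -0.62 ± 0.09 (SE, 4 sets; 95% interval -0.81 to -0.42; limma adjusted p = 0.00469), lower in 4 of 4 sets, and of the 5 members it had the largest difference. From low to high, the mean levels were those of KO-labelled clone 2 (6.39), Control clone 2 (6.84), KO-labelled clone 1 (7.50) and Control clone 1 (8.29), with no overlap between the replicates of neighbours. Of the 10 fibroblast and pericyte markers, 0 passed in limma in either direction, beside 0.953% of all genes, and 0 had an unadjusted p under 0.05. Their mean log2 level per array ran from 5.97 to 6.24 in KO-labelled and from 6.04 to 6.16 in Control cultures. The part of such cells in the Pdgfrb result was not tested.

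Both calls rest on the pairing and the variance model. Without the set block the Kit and Pdgfrb differences did not pass (adjusted p = 1 for both, unadjusted p = 0.00546 and 0.185 in limma), nor without the variance trend (0.115 for Kit and 0.0756 for Pdgfrb), and without the set of clone 1, replicate 2, Pdgfrb was at -0.53 (adjusted p = 0.0603).

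Flt3, the receptor for FLT3 ligand, was at 7.41 and 7.77 in KO-labelled cultures of clone 2 and at 6.18 and 6.21 in those of clone 1. In Control cultures it was at 6.99 and 7.37 in clone 2 and at 5.87 and 6.18 in clone 1. It was above its Control culture in 4 of 4 sets, by 0.42 and 0.40 in clone 2 and by 0.31 and 0.03 in clone 1, as was the case for 6.63% of all genes. The fitted difference of 0.29 ± 0.09 (SE, 4 sets; 95% interval 0.10 to 0.48) did not pass over all genes (limma adjusted p = 0.248, unadjusted p = 0.00592). The order of mean levels was KO-labelled of clone 2 (7.59), Control of clone 2 (7.18), KO-labelled of clone 1 (6.20) and Control of clone 1 (6.02). The clones did not overlap in either condition, while the conditions met within clone 1, at levels near those of silent genes.

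Csf1r, the receptor of the macrophage lineage, was at 6.83 and 7.01 in KO-labelled cultures of clone 2 and at 5.91 and 6.03 in those of clone 1. In Control cultures it was at 6.50 and 6.74 in clone 2 and at 5.92 and 5.92 in clone 1. In clone 2 both KO-labelled cultures were higher than both Control cultures, by 0.34 and 0.28 within the sets, and in clone 1 the set differences were -0.01 and 0.10, at levels close to those of silent genes. The fitted difference was 0.18 ± 0.09 (SE, 4 sets; 95% interval -0.01 to 0.37; limma adjusted p = 0.841). Of 8 measured monocyte and macrophage markers 0 passed in limma, beside 0.953% of all genes, and 1 had an unadjusted p under 0.05. Of their differences 4 lay above 0 and 4 below.

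Pdgfra, the receptor that binds most forms of platelet-derived growth factor, stayed at the level of usually silent genes. It was at 5.42 and 5.77 in KO-labelled cultures of clone 2 and at 5.61 and 5.53 in those of clone 1, against 5.72 and 5.65 in Control cultures of clone 2 and 5.37 and 5.70 in those of clone 1. Only 1 of 8 arrays lay above 5.75. The set differences had both signs, and the fitted difference was -0.03 ± 0.10 (SE, 4 sets; 95% interval -0.23 to 0.18), so a change of more than that interval was not seen, at a level where a low transcript could not be told apart from background.

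**Figure D2:**
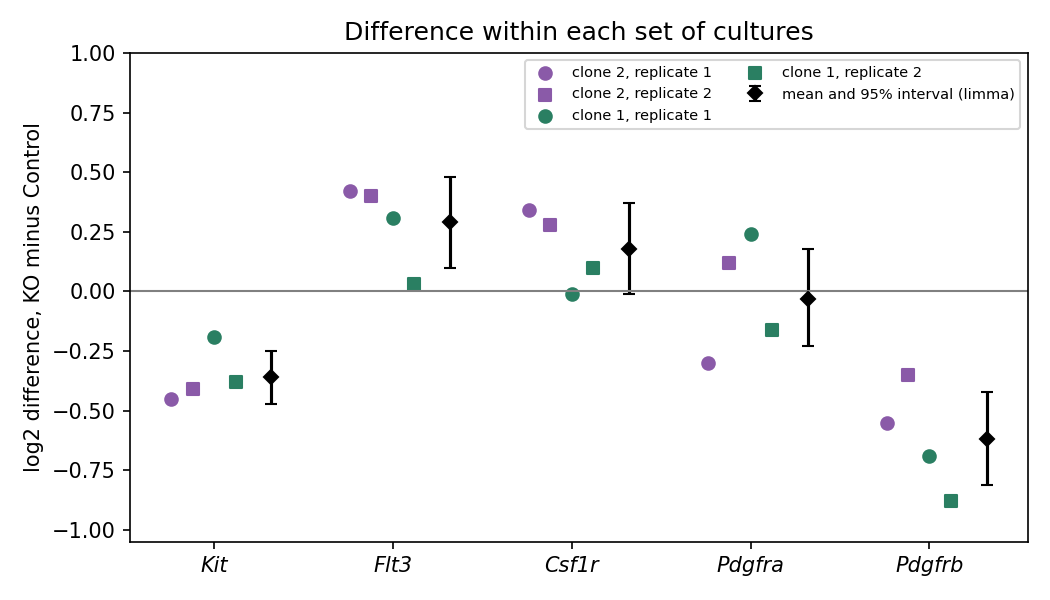
Log2 difference, KO-labelled minus Control (vertical axis), of each gene in each of the 4 sets, with clone 2 in purple, clone 1 in green, circles for replicate 1 and squares for replicate 2. Black diamonds are the fitted means with 95% intervals: those of Kit (-0.36) and Pdgfrb (-0.62) lie wholly below 0, and the sets of Pdgfra fall on both sides of 0.

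The next question was whether the clones respond alike. With an effect fitted per clone, Kit passed in clone 2 (-0.43 ± 0.07, SE; limma adjusted p = 0.00793) and was at -0.29 ± 0.07 in clone 1 (adjusted p = 0.249). Pdgfrb was at -0.45 ± 0.13 in clone 2 (adjusted p = 0.226) and passed in clone 1 (-0.79 ± 0.13; adjusted p = 0.0141). So 1 of 5 members passed in each clone, lower in KO-labelled cultures, where 0.682% of all genes passed in clone 2 (0.396% lower) and 0.181% in clone 1 (0.12% lower). These do not show that the clones differ: the clone 2 effect minus the clone 1 effect was -0.14 for Kit (95% interval -0.36 to 0.08) and 0.34 for Pdgfrb (95% interval -0.04 to 0.72), and 0 of 5 members passed the test of that difference (limma adjusted p = 1 for each, the smallest unadjusted p being 0.0765 for Pdgfrb), as 0.01% of all genes did. For Flt3 the difference between clone effects was 0.24 (95% interval -0.17 to 0.64), for Csf1r 0.26 (95% interval -0.15 to 0.66) and for Pdgfra -0.13 (95% interval -0.57 to 0.31). The calls within a clone moved with single sets: Pdgfrb in clone 1 did not pass without replicate 1 (-0.88, adjusted p = 0.219) or replicate 2 (-0.69, adjusted p = 0.683) of that clone, and in clone 2 it passed without replicate 2 (-0.55, adjusted p = 0.0435). Kit in clone 1 passed without replicate 1 (-0.29, adjusted p = 0.00257) or replicate 2 (-0.29, adjusted p = 0.00353) of clone 2, and with array weights (adjusted p = 0.0344). The Kit call in clone 2 and the Pdgfrb call in clone 1 also ended without the variance trend (adjusted p = 0.413 for Kit and 0.292 for Pdgfrb) and with all probe sets tested (0.719 for Kit and 0.653 for Pdgfrb).

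The clones themselves differed in 3 of the 5 genes, by larger log2 differences than the conditions did. Flt3 and Csf1r were higher in clone 2 and Pdgfrb was lower in it, in KO-labelled and in Control cultures alike, while Kit and Pdgfra did not pass. Of 5 members, 2 were higher and 1 lower in clone 2 in each condition, beside 5.25% of all genes among KO-labelled cultures (1.82% higher and 3.43% lower) and 3.97% among Control cultures (1.6% higher and 2.37% lower). The median size of the clone difference was 0.95 over the members and 0.13 over all genes in KO-labelled cultures, and 0.70 over the members and 0.10 over all genes in Control cultures.

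Flt3 was 2.63-fold higher in clone 2 among KO-labelled cultures (log2 difference 1.39 ± 0.17, SE, 2 arrays per clone; limma adjusted p = 0.000849) and 2.23-fold higher among Control cultures (1.16 ± 0.17; adjusted p = 0.00296). Without the set of clone 1, replicate 1, the Control difference was 1.00 and did not pass (adjusted p = 0.0758). Csf1r was 1.94-fold higher in clone 2 among KO-labelled cultures (0.95 ± 0.13; adjusted p = 0.00154) and 1.62-fold higher among Control cultures (0.70 ± 0.13; adjusted p = 0.0117). Flt3 and Csf1r lay near the level of silent genes in clone 1, which limits what these folds can show. The Csf1r call among Control cultures ended without clone 1, replicate 1 (0.69, adjusted p = 0.167), clone 1, replicate 2 (0.70, adjusted p = 0.131) or clone 2, replicate 2 (0.58, adjusted p = 0.0786) and with all probe sets tested (0.70, adjusted p = 0.0636). The call among KO-labelled cultures ended without clone 1, replicate 1 (0.90, adjusted p = 0.0585).

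Pdgfrb ran the other way. It was 2.16-fold lower in clone 2 among KO-labelled cultures (log2 difference -1.11 ± 0.14, SE, 2 arrays per clone; limma adjusted p = 0.000758) and 2.73-fold lower among Control cultures (-1.45 ± 0.14; adjusted p = 0.000121), and it passed under all 13 alternatives run for each condition. The neighbouring genes Pdgfrb and Csf1r thus differed in opposite directions between the clones. Hmgxb3, the measured gene on the other side of Csf1r, was at 0.09 ± 0.13 among KO-labelled and 0.06 ± 0.13 among Control cultures and did not pass. Kit was at 0.07 ± 0.12 among KO-labelled cultures (95% interval -0.20 to 0.34) and at 0.21 ± 0.12 among Control cultures (95% interval -0.06 to 0.48), and Pdgfra at 0.02 ± 0.15 and 0.15 ± 0.15 in the same order of conditions.

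**Figure D3:**
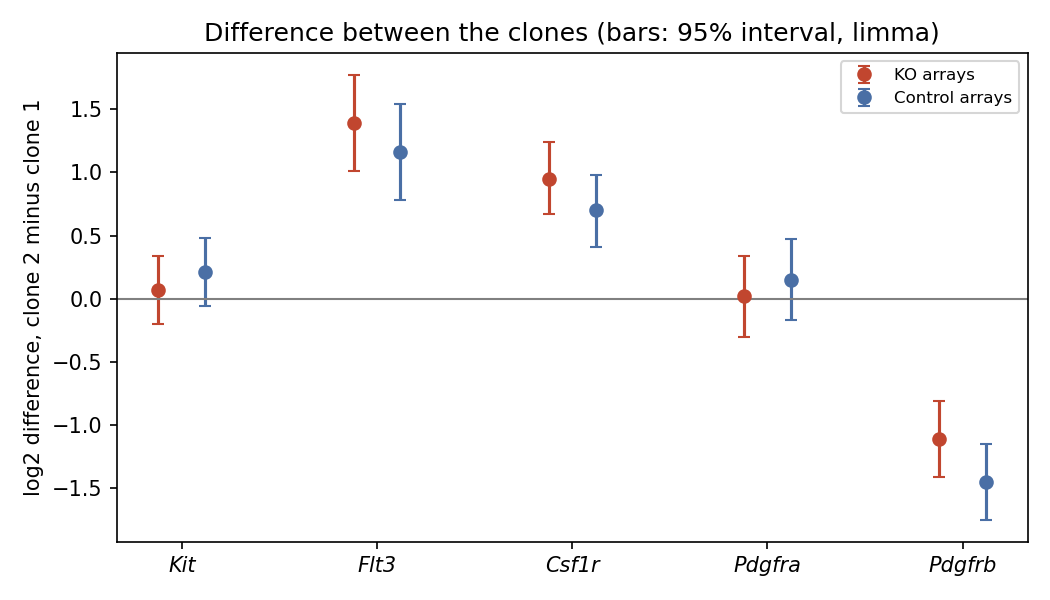
Log2 difference, clone 2 minus clone 1 (vertical axis), of each gene among KO-labelled (red) and Control (blue) arrays, with 95% intervals from limma. Flt3 and Csf1r lie above 0 and Pdgfrb below 0 in both conditions, and the intervals of Kit and Pdgfra hold 0.

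Single markers of other cell states also differed between the clones, in both directions. Of all genes, 1.82% passed as higher and 3.43% as lower in clone 2 among KO-labelled cultures. Among Control cultures 1.6% passed as higher and 2.37% as lower. Among monocyte and macrophage markers Fcgr1 was higher in clone 2, by 2.06 ± 0.12 among KO-labelled and 1.89 ± 0.12 among Control cultures, and Adgre1, which encodes F4/80, was lower (-1.37 ± 0.16 among KO-labelled and -1.23 ± 0.16 among Control cultures). Over the 8 measured genes of that list, 1 was higher and 2 lower in clone 2 among KO-labelled cultures and 1 was higher and 1 lower among Control cultures, and their mean level per array ran from 6.95 to 7.09 in clone 2 and from 6.91 to 7.02 in clone 1. Of the 10 fibroblast and pericyte markers, only Acta2, smooth muscle actin, passed, and it was lower in clone 2 (-0.79 ± 0.11 among KO-labelled and -0.74 ± 0.11 among Control cultures), while the list's mean level ran from 6.03 to 6.24 in clone 2 and from 5.97 to 6.11 in clone 1. Of 9 dendritic cell markers 0 passed in limma in either condition and 0 had an unadjusted p under 0.05, and their mean level was 5.54 to 5.87 in clone 2 and 5.49 to 5.64 in clone 1. The progenitor marker Cd34 was higher in clone 2, at 11.23 and 11.57 in KO-labelled and 11.11 and 11.55 in Control cultures, than in clone 1, at 5.58 and 5.91 in KO-labelled and 5.77 and 5.92 in Control cultures. The clone 1 levels lay at or near that of silent genes, so no fold is given. Over the 7 progenitor genes, 1 was higher and 2 lower in clone 2 among KO-labelled cultures. Among Control cultures 1 was higher and 1 lower. Opposite to Cd34, the KO-labelled means of Ms4a3 were 8.86 in clone 2 and 11.14 in clone 1. Those of Cebpa were 8.16 in clone 2 and 9.22 in clone 1. The part of these cell states in the receptor differences was not tested.

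The genes most like each receptor over the 8 arrays were found by Pearson correlation of log2 levels among 1173 genes with an SD of at least 0.3. Because the clones stand apart, the correlation with clone means removed is given beside it, and both are descriptions. For Flt3 they were Kirrel (0.994, and 0.971 with clone means removed), Paqr5 (0.993 and 0.935) and Mfng (0.992 and 0.924). For Csf1r they were Dock9 (0.996 and 0.964), Klrg2 (0.996 and 0.969) and Paqr5 again (0.994 and 0.944). For Pdgfrb they were Mlph (0.990 and 0.964), Fosl2 (0.988 and 0.954) and Ifitm1 (0.977 and 0.907). For Kit, which did not separate the clones, they were Cd28 (0.799 and 0.880), Gria3 (0.789 and 0.975) and Cd69 (0.766 and 0.914). For Pdgfra, with an SD of 0.14 over the arrays, they were Mir17hg (0.729 and 0.700), Krtap10-4 (0.714 and 0.675) and Krtap5-3 (0.706 and 0.666).

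No change of the receptors' ligands was detected. Of 8 ligand genes 0 passed in limma between KO-labelled and Control cultures, beside 0.953% of all genes, and 0 had an unadjusted p under 0.05. With so small a share, 0 of 8 does not set the ligands apart from other genes. Kitl, which encodes stem cell factor, the ligand of Kit, was at 4.18 to 4.36 in KO-labelled and 4.12 to 4.25 in Control cultures, below 5.75, with a difference of 0.08 ± 0.06 (SE, 4 sets). Flt3l was at 7.83 to 8.09 in KO-labelled and 7.85 to 7.97 in Control cultures, with a difference of 0.00 ± 0.07. The Csf1r ligands Csf1 and Il34 were at -0.05 ± 0.08 and -0.08 ± 0.08. The platelet-derived growth factor genes Pdgfa, Pdgfb, Pdgfc and Pdgfd were at -0.07 ± 0.08, 0.00 ± 0.08, 0.12 ± 0.08 and 0.01 ± 0.06. Pdgfd, like Kitl, lay below 5.75 on every array, at a mean level of 4.36.

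Of 19 other receptor kinase genes 0 passed in limma, beside 0.953% of all genes, and 2 had an unadjusted p under 0.05. These were Flt1, a receptor for vascular endothelial growth factor (-0.38 ± 0.11; limma adjusted p = 0.19), and Igf1r, the receptor for insulin-like growth factor 1 (-0.28 ± 0.07; adjusted p = 0.0762). With an effect fitted per clone, both fell in clone 2, Flt1 by 0.68 ± 0.10 (limma adjusted p = 0.00216) and Igf1r by 0.43 ± 0.08 (adjusted p = 0.0132), and in clone 1 they were at -0.08 ± 0.10 and -0.14 ± 0.08 (adjusted p = 1 for both). The difference between the clone effects did not pass for Flt1 (-0.61 ± 0.14; adjusted p = 0.896) or Igf1r (-0.29 ± 0.11; adjusted p = 1). Kdr, the class V receptor gene next to Kit, was at 0.02 ± 0.08, so of the neighbours Pdgfra, Kit and Kdr the one that passed was Kit. The remaining 16 of the 19 receptor kinase genes lay between -0.11 and 0.11.

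Downstream of the receptors, 1 of 38 signalling genes rose and 0 fell, beside 0.481% of all genes higher and 0.471% lower. It was Plcg1, the phospholipase C that receptors of this class, the platelet-derived growth factor receptors above all, bind and phosphorylate. Plcg1 was at 7.74 and 8.14 in KO-labelled cultures of clone 2 and 7.51 and 7.30 in those of clone 1, against 7.27 and 7.77 in Control cultures of clone 2 and 7.06 and 6.89 in those of clone 1. It was higher in 4 of 4 sets, by 0.37 to 0.47, with a fitted difference of 0.43 ± 0.07 (SE, 4 sets; limma adjusted p = 0.0112). It did not pass without clone 1 replicate 2 (adjusted p = 0.0897), clone 2 replicate 1 (0.0796), the set block (1) or the variance trend (0.0504). Of 33 genes of negative regulators, such as the CBL ubiquitin ligases, SOCS proteins, phosphatases and Sprouty proteins, 0 passed in limma and 5 had an unadjusted p under 0.05, of which Cbl had the smallest (-0.12 ± 0.04; adjusted p = 0.214). The median difference was -0.01 for the signalling genes, -0.02 for the negative regulators and 0.00 over all genes.

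Of 31 measured transcription factor genes known to regulate Kit, Flt3 or Csf1r or to act beside RUNX1 in blood cells, 1 rose and 3 fell, with 0.481% of all genes higher and 0.471% lower. The one that rose was Runx1 itself, given above. Cebpa, a myeloid factor, fell by 0.66 ± 0.08 (SE, 4 sets; limma adjusted p = 0.00128), Cebpe, of late granulocytes, by 0.34 ± 0.05 (adjusted p = 0.00406) and Spi1, which encodes PU.1, a known activator of Csf1r, by 0.14 ± 0.03 (adjusted p = 0.0465). Without clone 1 replicate 1 or replicate 2 Spi1 did not pass (adjusted p = 0.111 and 0.43). Csf1r, as given above, was at 0.18 in the same cultures and did not pass. Of the markers of other cells, Hdc, of mast cells and basophils, rose by 0.63 ± 0.06, and of the 7 progenitor genes 3 fell, Cebpa, Ms4a3 (by 0.81 ± 0.17) and Prtn3 (by 0.15 ± 0.03). Without clone 2 replicate 2, where the Ms4a3 difference was -1.81, it was at -0.47 and passed, and Prtn3 did not pass without clone 1 replicate 1 (adjusted p = 0.0877) or replicate 2 (0.0603). Without the set block or without the variance trend, none of Plcg1, Cebpa, Cebpe, Spi1, Hdc, Ms4a3 and Prtn3 passed in limma (adjusted p = 1 for each without the block and 0.0504 to 0.721 without the trend). The mast cell list, whose cells carry much Kit, had 1 of 10 members higher and 0 lower, and its mean level per array was 5.80 to 6.01 in KO-labelled and 5.82 to 5.98 in Control cultures. Of its 10 differences 5 lay above 0 and 5 below. Mcpt8 of this list, at -0.24 ± 0.07, was lower in 4 of 4 sets without passing (limma adjusted p = 0.177).

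**Figure D4:**
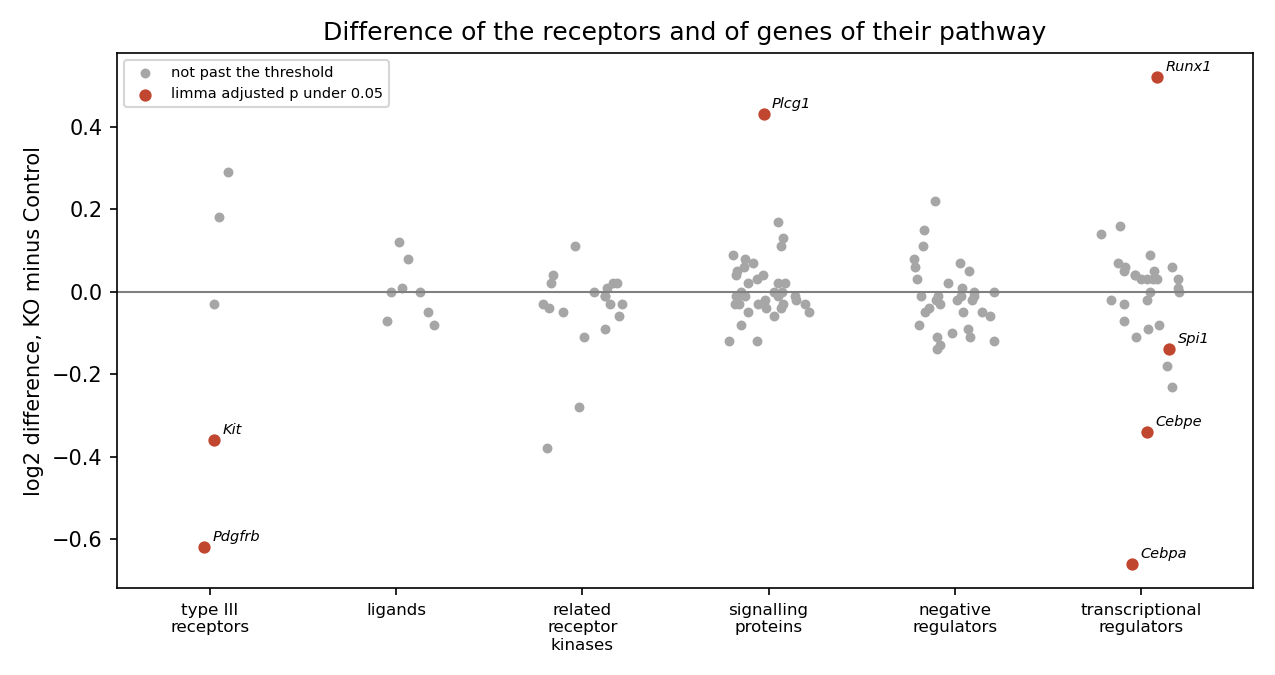
Log2 difference, KO-labelled minus Control (vertical axis), of each measured gene of the receptor class and of 5 lists. The lists are ligands, related receptor kinases, signalling genes, negative regulators and transcription factor genes. Points are spread sideways only to keep them apart. Red points passed (limma adjusted p under 0.05) and are named; 0 of 8 ligands, 0 of 19 related receptors and 0 of 33 negative regulators are among them.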

How the data were processed

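Total RNA of 8 cultures was labelled with whole-transcript kits and hybridised to Affymetrix arrays, per the labels' protocols. The deposited values are log2 expression levels that the authors made with RMA, per the submitters' processing notes (version and chip definition: not given in the sources used here). The log2 scale was read from the values, 2.6 to 13.77. No spot or detection data were used, so precision rests on the number of arrays.

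Of 35556 probe sets, 21789 had 1 gene symbol in the platform annotation, 1621 had several and 12146 were not listed. The probe set with the highest mean stood for each of 999 genes with more than 1. Fits used limma 3.58.1 in R 4.3.3 with a variance trend, two-sided p-values and adjustment by Benjamini and Hochberg's method over 19938 genes. The series' design text names 4 sets, read here as clone and replicate number in the titles and used as a block. Both arrays of a set deviated together from their group means (r 0.72 to 0.82, against 0.57 to 0.62 for the best match in another set). With clone means removed r was 0.44 in clone 1 and 0.25 in clone 2. These are single values per clone, since the deviations of 2 replicates then mirror each other. The block left 3 residual degrees of freedom and moderation added 9.72. Clones were compared within conditions without a block. Each SE is the moderated one. The fits were tested on simulated data. Members and lists were chosen with earlier results of these data known. All members, ligands and related receptors were reported, and of other lists the genes past the threshold or the smallest p. Promoter windows and gene order came from RefSeq, GRCm38.p6. Listed genes without a probe set of their own were not analysed here. Alternatives changed the pairing, variance model, array weights, normalization, probe sets, filter and sets included.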

Additional observations from a re-analysis of the deposited data

How the results depend on the processing

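Across 17 alternatives the Kit and Pdgfrb differences kept their direction, with 13 and 12 past the threshold. Both counts include the fits by set number, which were added after seeing the data and are given below. Robust moderation and a filter on low genes ended no call of these genes. Averaging a gene's probe sets could not change the values of these genes, as each has 1 probe set. Both calls ended, with Kit at -0.36 and Pdgfrb at -0.62, without the replicate block (adjusted p = 1 for both), with a term for clone alone (0.288 and 0.0563), without the variance trend (0.115 and 0.0756) and with all probe sets tested (0.22 and 0.238). The Pdgfrb call also ended without clone 1 replicate 2 (-0.53, adjusted p = 0.0603). The cause was not tested. With sets left out in turn, Pdgfrb ran from -0.71 to -0.53 and Pdgfra from -0.12 to 0.06. Fitted by set number, an alternative added after seeing the data, Kit was at -0.32 and -0.40 and Pdgfrb at -0.62 and -0.61 in the sets numbered 1 and 2, and both passed.

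Of all genes, 190 passed for KO-labelled against Control (1289 at an unadjusted p under 0.05). The count was 0 without the replicate block (317 unadjusted), 23 with a term for clone alone, 78 with terms for clone and replicate number, 13 without the variance trend, 388 with array weights, 0 with all probe sets (1834 unadjusted), and 98 without clone 1 replicate 2, 110 without clone 2 replicate 1 and 418 without clone 2 replicate 2. For the difference between clone effects (2 genes) it was 0 without the trend (304 unadjusted), 4 with weights, 12 with centring, 0 with all probe sets (776 unadjusted) and 5, 13, 224 and 40 without replicates 1 and 2 of clone 1 and replicates 1 and 2 of clone 2. In clone 2 (136 genes) it was 3 without the trend, 0 with all probe sets (1269 unadjusted) and 161 to 665 without 1 set (665 and 266 without replicates 1 and 2 of clone 2). In clone 1 (36 genes) it was 0 without the trend (601 unadjusted), 131 with weights, 61 with quantile normalization, 59 with centring, 0 with all probe sets (1236 unadjusted) and 25 to 256 without 1 set (256 and 255 without replicates 1 and 2 of clone 2).

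Between clones among KO-labelled arrays (1047 genes) the count was 1927 with the replicate block, 567 with weights, 599 with all probe sets and 382 to 1542 without 1 set, and among Control arrays (792 genes) it was 1330, 1599, 477 and 385 to 588. The replicate block changed no call of the 5 genes there. Values near 0 changed sign. The Pdgfra clone difference among KO-labelled arrays was 0.00 with quantile normalization, -0.02 with centring and -0.15 to 0.20 without 1 set, and among Control arrays -0.01 to 0.31. Without 1 set the Kit clone difference among KO-labelled arrays was -0.05 to 0.19, the difference between clone effects of Pdgfra -0.34 to 0.08, the Pdgfra effect -0.30 to 0.12 in clone 2 and -0.16 to 0.24 in clone 1, and the Csf1r effect in clone 1 -0.01 to 0.10. A clone left with 1 set was assumed to vary like the other. Pdgfra and, in clone 1, Csf1r and Flt3 lay near the level of silent genes, which limits what a difference there can show.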

Other observations

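Other listed genes also separated the clones. Of 19 related receptor genes, 1 was higher and 1 lower in clone 2 among KO-labelled cultures and 2 were higher and 1 lower among Control cultures. Flt1, a receptor for vascular endothelial growth factor, was lower in clone 2 (log2 difference -1.37 ± 0.13 among KO-labelled and -0.76 ± 0.13 among Control cultures, SE; limma adjusted p = 0.000165 and 0.00873). Tie1, a receptor gene of endothelial and blood stem cells, was higher in clone 2 (1.15 ± 0.18 among KO-labelled and 0.95 ± 0.18 among Control cultures). Of 38 signalling genes, 3 were higher and 1 lower among KO-labelled cultures and 2 higher and 0 lower among Control cultures. Btk, a kinase of B and myeloid cells, was higher in clone 2 by 0.57 ± 0.11 in each condition, and Stat5a, which cytokine receptors activate, by 0.41 ± 0.09 among KO-labelled and 0.39 ± 0.09 among Control cultures.

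Of 33 negative regulators, 2 were higher and 3 lower in clone 2 among KO-labelled cultures and 2 higher and 2 lower among Control cultures. The receptor phosphatase genes Ptprj (-1.03 ± 0.19 among KO-labelled and -0.84 ± 0.19 among Control cultures) and Ptprc, which encodes CD45 (-0.47 ± 0.08 and -0.40 ± 0.08 in the same order), were lower in clone 2, and Dusp5, a phosphatase gene of the ERK pathway, was higher (0.69 ± 0.11 among KO-labelled and 0.55 ± 0.11 among Control cultures). Among 31 transcription factor genes, 5 were higher and 2 lower among KO-labelled cultures and 4 higher and 2 lower among Control cultures. The ETS factor gene Erg was 11.2-fold higher in clone 2 among KO-labelled and 8.91-fold higher among Control cultures (limma adjusted p = 4.36e-07 and 9.94e-07), and its relative Ets1 was 2.50-fold and 2.42-fold lower in the same order. Erg in clone 1 was at 6.47 and 6.25 in KO-labelled and 6.34 and 6.64 in Control cultures. These levels lay not far above 5.75, which limits what its folds can show. In these comparisons 5.25% of all genes passed among KO-labelled and 3.97% among Control cultures.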
